A study of Homo sapiens with 8 samples.

Results

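The genes described here write, erase or read histone acetylation: the acetyltransferase genes EP300, CREBBP and KAT2B, the deacetylase genes HDAC1, HDAC2, HDAC4, HDAC7 and HDAC9, and the bromodomain gene BRD2. They are 9 of the 19974 protein-coding genes of the gene table. They were taken by name, and every peak lying in the hg38 RefSeq span of a gene or within 50 kb of it was assigned to that gene. ChIP-seq (chromatin immunoprecipitation followed by sequencing) had been run for histone H3 acetylated at lysine 27 (H3K27ac), which lies at active promoters and enhancers, in the triple-negative breast cancer line MDA-MB-231. The labels list 2 immunoprecipitated and 2 input libraries of ARID1A knockout cells and as many of control cells, to ask where the mark differed without ARID1A, which belongs to the nucleosome remodeller SWI/SNF (BAF). Nothing in the labels said whether the knockout was a single clone, how the control cells had been made, or whether replicates were separate cultures. The labels disagreed on the antibody: the extraction protocol named one to H3K4me3, while the titles and characteristics gave H3K27ac, which is the name used here.

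Acetyltransferases transfer an acetyl group from acetyl-CoA to lysines of histone tails, and the paralogues EP300 and CREBBP are the main enzymes that place it on lysine 27 of H3. Deacetylases remove it: HDAC1 and HDAC2 are the catalytic subunits of the Sin3, NuRD and CoREST corepressor complexes. HDAC4, HDAC7 and HDAC9 are class IIa enzymes, which shuttle between nucleus and cytoplasm, bind MEF2 transcription factors and have little deacetylase activity of their own. BRD2 binds acetylated histones through paired bromodomains and belongs to the BET family.

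Only 1 peak list stood for each genotype, and whether it had been called on both replicates together or on a single library was not given in the sources used here. No value therefore has a replicate error, and the genotypes could not be compared by a test. The knockout list held 42552 peaks and the control list 39797 on the assembled chromosomes. Pileup is the fragment coverage that the peak caller gave for a peak, and its median over a whole list was 32.0 in the knockout list and 22.7 in the control list. Fold is the caller's enrichment of a peak over the background from the input of the same genotype. Both are the authors' values and place a peak only within its own list. The depth of the libraries was not given in the sources used here.

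Acetylation around the 9 genes was mostly common to both genotypes, and the excess of knockout-only peaks lay at a single gene, HDAC9. The windows held 64 knockout peaks and 55 control peaks, and 47 in each list were shared, meaning an overlap of at least 1 bp with the opposite list. There were 17 knockout-only peaks, which is 26.6% of the knockout peaks (95% exact binomial interval 16.3 to 39.1, for counting error only), against 8 control-only peaks, which is 14.5% of the control peaks (6.50 to 26.7). Over the whole lists 22.4% of knockout peaks were knockout-only and 18.0% of control peaks were control-only. Among peaks within 50 kb of any protein-coding gene the shares were 19.8% and 17.3%. Both intervals for the 9 genes take in these backgrounds. The shares depended on the threshold. With the 30000 peaks of highest −log10 q of each list 15.0% were knockout-only and 12.8% control-only. With a −log10 q of at least 5 in both lists these shares were 21.4% and 5.71%. Whole-list shares at these thresholds are not given here, so these values cannot be set against the backgrounds above. HDAC9 alone had 9 of the 17 knockout-only peaks and none of the control-only peaks. Around the other 8 genes 8 of 45 knockout peaks were knockout-only and 8 of 45 control peaks were control-only, 17.8% in each list. At least 1 knockout-only peak lay around 8 of the 9 genes, against 38.4% of all protein-coding genes, and at least 1 control-only peak around 5 of the 9, against 42.3% of all. These gene counts are not matched for peak number. The median window held 6 knockout and 5 control peaks for the 9 genes, and 4 of each for all genes. With a −log10 q of at least 5 no knockout-only peak was left around CREBBP, HDAC2 and HDAC7. With the 30000 peaks of each list EP300 had none either. Control-only peaks were lost around CREBBP, KAT2B and HDAC4 at the first threshold, where KAT2B had 2 knockout-only peaks instead of 1. At the second threshold KAT2B lost its control-only peak and HDAC1 gained 1. The shares of all protein-coding genes at these thresholds are not given here.

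**Figure D1:**
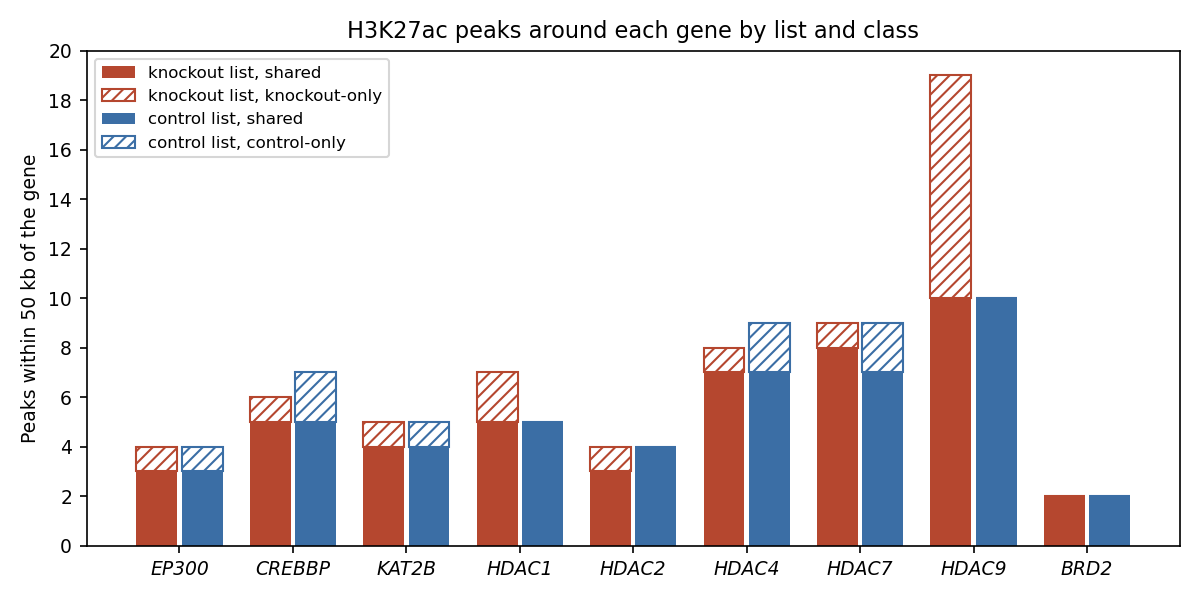
Number of H3K27ac peaks within 50 kb of each gene (vertical axis), with the knockout list left of the control list; filled parts are peaks shared between the lists and hatched parts are peaks of 1 list only. HDAC9 has 9 knockout-only and 0 control-only peaks, and no other gene has more than 2 of either kind.

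All 9 genes had a peak over the outermost start that the RefSeq promoter table lists for them, in both lists. Of the 15812 protein-coding genes with a listed start, 62.0% had a peak within 1 kb of it in both lists, 1.26% in the knockout list alone, 1.49% in the control list alone and 35.3% in neither. Along the knockout list, BRD2 had the highest pileup at its start (219), followed by EP300 (164), HDAC7 (146), CREBBP (128), KAT2B (112), HDAC2 (95.4), HDAC4 (84.9), HDAC1 (78.8) and HDAC9 (18.7). Along the control list the order was BRD2 (132), EP300 (99.7), KAT2B (81.7), CREBBP (68.2), HDAC2 (63.4), HDAC7 (54.0), HDAC1 (52.1), HDAC4 (49.1) and HDAC9 (10.8). BRD2 and EP300 led both orders and HDAC9 closed both. HDAC7 ranked 3 in the knockout list and 6 in the control list, where its start lay in a peak of 13.7 kb, against 5.34 kb in the knockout list, so these 2 pileups cover different stretches. The median pileup at the outermost start was 112 in the knockout list and 63.4 in the control list over the 9 genes, and 83.7 and 48.6 over all protein-coding genes with a peak there.

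**Figure D2:**
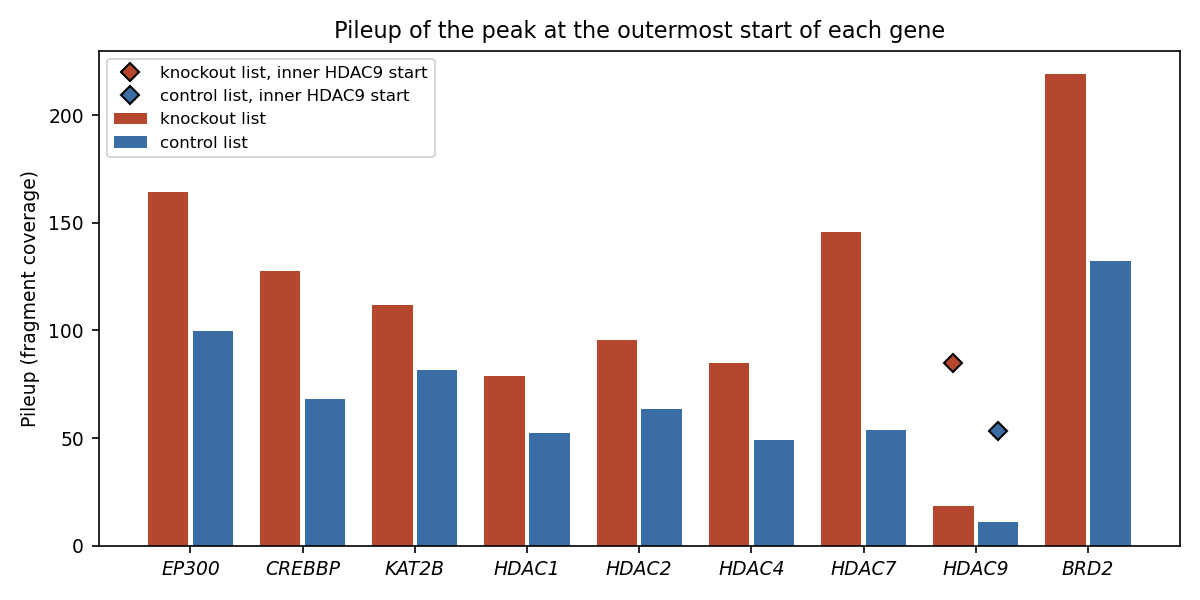
Pileup, in units of fragment coverage, of the peak at the outermost listed start of each gene, with the knockout list left of the control list; diamonds give the peak at the inner HDAC9 start. The lists are not scaled to each other, so the order of genes can be read within a list: BRD2 is highest (219 and 132) and the outermost HDAC9 start lowest (18.7 and 10.8).

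None of the genotype-only peaks held a start of these genes, and nearly all were weak. The 17 knockout-only peaks had a median fold of 3.03 (range 2.61 to 5.36) and a median length of 727 bp, and the 8 control-only peaks a median fold of 3.15 (2.42 to 5.94) and a median length of 1058 bp. In each list 1 of these peaks lay above the median of its own list by fold. Shared peaks around the same genes were stronger, with a median fold of 8.78 in the knockout list and 6.75 in the control list. Over the whole lists the medians were likewise low for genotype-only peaks, at 3.15 in the knockout list and 2.99 in the control list, and higher for shared peaks, at 6.97 and 6.29. A −log10 q of at least 5 was reached by 5 of the 17 knockout-only and 1 of the 8 control-only peaks. Inside the gene itself lay 13 of the 17 knockout-only and 6 of the 8 control-only peaks. Of the shared peaks, 29 of 47 in the knockout list and 28 of 47 in the control list lay there. HDAC9, whose span takes up 916 kb of a window of 1016 kb, had 8 of the 13.

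The sequence at the starts differed among the genes and between the starts of a single gene. The promoter table gave 21 starts for the 9 genes, each with the 250 bases before and 50 after it. Of these, 12 promoters were rich in CpG, meaning a GC content over 50% and a ratio of observed to expected CpG over 0.6, and all 12 had a peak within 1 kb in both lists. Of the other 9 starts, 5 had one in both lists and 4 in neither. The starts are not independent, since several of a gene can lie under a single peak, as at BRD2 and CREBBP. Over all starts of protein-coding genes a peak in both lists stood at 82.4% of the CpG-rich and 28.4% of the other starts. The starts below are shown because they mark both ends of this range: BRD2 and EP300 have the strongest start peaks, and the starts of HDAC9 and HDAC4 include some with and some without a peak. Capitals mark CpG dinucleotides, and the sequences are RefSeq's on GRCh38.p14, 5′ to 3′ along the gene.
BRD2, outermost start (chr6:32968344-32968643, plus strand): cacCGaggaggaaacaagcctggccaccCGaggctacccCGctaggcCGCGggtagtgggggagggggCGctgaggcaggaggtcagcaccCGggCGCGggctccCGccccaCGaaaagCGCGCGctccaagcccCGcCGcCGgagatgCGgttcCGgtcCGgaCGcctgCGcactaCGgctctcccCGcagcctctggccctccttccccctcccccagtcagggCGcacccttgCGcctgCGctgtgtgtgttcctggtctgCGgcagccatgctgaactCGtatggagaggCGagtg
EP300, only listed start (chr22:41092342-41092641, plus strand): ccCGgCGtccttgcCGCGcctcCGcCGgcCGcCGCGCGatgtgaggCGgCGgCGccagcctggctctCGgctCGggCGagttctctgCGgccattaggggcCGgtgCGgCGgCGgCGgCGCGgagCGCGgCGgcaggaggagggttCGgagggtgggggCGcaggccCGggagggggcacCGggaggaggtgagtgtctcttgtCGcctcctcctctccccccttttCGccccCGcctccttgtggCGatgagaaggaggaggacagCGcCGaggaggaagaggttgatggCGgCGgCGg
HDAC4, outermost start (chr2:239401600-239401899, minus strand): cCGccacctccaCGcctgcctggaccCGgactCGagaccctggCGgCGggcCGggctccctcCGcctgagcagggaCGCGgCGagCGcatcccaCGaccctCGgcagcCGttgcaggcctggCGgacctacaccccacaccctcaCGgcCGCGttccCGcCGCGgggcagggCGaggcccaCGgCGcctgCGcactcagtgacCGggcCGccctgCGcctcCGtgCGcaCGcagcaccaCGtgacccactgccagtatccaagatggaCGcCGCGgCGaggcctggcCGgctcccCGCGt
HDAC4, inner start with a peak (chr2:239274732-239275031, minus strand): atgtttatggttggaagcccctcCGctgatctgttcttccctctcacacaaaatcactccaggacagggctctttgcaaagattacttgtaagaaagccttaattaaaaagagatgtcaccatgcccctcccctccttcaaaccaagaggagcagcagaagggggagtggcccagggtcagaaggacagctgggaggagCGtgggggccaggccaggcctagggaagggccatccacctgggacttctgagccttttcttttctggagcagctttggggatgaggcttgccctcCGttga
HDAC4, inner start without a peak (chr2:239298481-239298780, minus strand): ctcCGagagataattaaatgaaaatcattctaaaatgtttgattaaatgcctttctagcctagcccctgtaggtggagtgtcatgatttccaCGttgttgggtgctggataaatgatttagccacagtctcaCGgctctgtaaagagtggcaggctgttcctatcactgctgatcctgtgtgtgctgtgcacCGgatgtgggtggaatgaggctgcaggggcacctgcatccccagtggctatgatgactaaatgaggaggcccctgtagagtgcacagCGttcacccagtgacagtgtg
HDAC9, outermost start (chr7:18086575-18086874, plus strand): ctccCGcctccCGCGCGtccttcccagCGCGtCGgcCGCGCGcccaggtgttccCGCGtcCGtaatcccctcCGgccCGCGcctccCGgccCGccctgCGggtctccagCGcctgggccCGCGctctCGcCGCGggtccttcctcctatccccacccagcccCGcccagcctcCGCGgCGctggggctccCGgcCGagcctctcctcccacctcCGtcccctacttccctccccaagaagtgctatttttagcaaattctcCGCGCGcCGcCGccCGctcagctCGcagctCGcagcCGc
HDAC9, inner start without a peak (chr7:18495499-18495798, plus strand): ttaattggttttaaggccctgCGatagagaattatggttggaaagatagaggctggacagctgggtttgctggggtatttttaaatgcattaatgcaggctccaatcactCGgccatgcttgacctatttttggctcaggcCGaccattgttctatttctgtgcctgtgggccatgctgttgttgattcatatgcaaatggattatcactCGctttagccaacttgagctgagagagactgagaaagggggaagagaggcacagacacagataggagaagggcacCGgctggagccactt
HDAC9, inner start with the strongest peak of the gene (chr7:18509020-18509319, plus strand): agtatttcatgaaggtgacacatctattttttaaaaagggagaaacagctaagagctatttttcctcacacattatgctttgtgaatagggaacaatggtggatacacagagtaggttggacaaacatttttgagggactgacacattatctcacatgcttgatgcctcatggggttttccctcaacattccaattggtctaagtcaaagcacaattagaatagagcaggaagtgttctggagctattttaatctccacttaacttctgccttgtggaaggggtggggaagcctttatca

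The BRD2 promoter shown holds 30 CpG dinucleotides and the EP300 promoter 40. Among the motifs searched on both strands, the GC box GGGCGG, bound by factors of the Sp family, was found in 9 of the 21 promoters, and in 45.0% of all 35116 promoters of the table. The CCAAT box was found in 4 of the 21 and in 34.6% of all. The HDAC9 windows that begin at 18495460 and 18495499 overlap and count the same CCAAT matches. A palindromic E-box, CACGTG, was found only in the outermost HDAC4 promoter, and in 7.26% of all promoters. The AP-1 site TGAGTCA, the cAMP response element TGACGTCA, the ETS site CCGGAAGT and TATAAA were found in none of the 21 promoters, and in 4.95%, 1.85%, 4.14% and 11.5% of all. No motif searched is contained in another. A match is a string of letters in this window and not a bound site.

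EP300, which encodes the acetyltransferase p300 (chromosome 22, 41092592 to 41180077), carried its acetylation at the start and beyond its far end, and no peak of either list lay in between. The start peak was 3.55 kb long in knockout cells (41090603 to 41094150, pileup 164, fold 32.4) and 4.23 kb long in control cells (41090850 to 41095080, pileup 99.7, fold 25.4). It lay at percentile 99.6 of the knockout list and 99.7 of the control list by fold. Just past the far end a shared peak had a pileup of 33.7 in knockout cells (1.26 kb) and 33.3 in control cells (2.31 kb). The knockout-only peak (41197117 to 41197913, 797 bp, pileup 17.6, fold 3.62) spanned the start of EP300-AS1, a non-coding gene. The control-only peak (41217359 to 41218784, 1426 bp, pileup 15.7, fold 5.94) lay in L3MBTL2, which encodes a Polycomb-group protein, over a start of L3MBTL2-AS1. It was the strongest control-only peak of the 9 genes. A shared peak stood at the start of L3MBTL2 itself (fold 15.6 in knockout and 10.8 in control cells).

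CREBBP, the paralogue of EP300 (chromosome 16, 3725054 to 3880713), had fewer acetylated bases in the knockout list than in the control list. Knockout peaks covered 7.52 kb of its window and control peaks 13.7 kb, a ratio of 0.547. Among 17129 protein-coding genes with peaks of both lists in their window the median ratio was 0.940, and 4.64% had a ratio as low as that of CREBBP. The difference came from widths more than from numbers, since 4 of its 5 shared pairs were wider in control cells. The widest gap was at a peak inside the gene, 1.23 kb long in knockout cells (3870992 to 3872222, pileup 12.2, fold 2.31) and 3.63 kb long in control cells (3870706 to 3874334, pileup 13.4, fold 3.76). The start peak, which covered both listed starts, was 2.33 kb long in knockout cells (3879378 to 3881710, pileup 128, fold 25.4) and 2.93 kb long in control cells (3878787 to 3881713, pileup 68.2, fold 19.1). The knockout-only peak (3861685 to 3862167, 483 bp, pileup 11.4, fold 3.02) lay inside the gene. So did the control-only peaks at 3745690 to 3747219 (1530 bp, pileup 10.2, fold 3.13) and 3849303 to 3850667 (1365 bp, pileup 11.3, fold 3.31). The nearest listed start to the first of these was that of TRAP1, a mitochondrial chaperone gene, whose own start carried a shared peak (fold 11.7 in knockout and 12.1 in control cells).

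KAT2B, which encodes the acetyltransferase PCAF (chromosome 3, 20040446 to 20154404), had all of its own peaks near its start, the farthest beginning 20.4 kb away. Its start peak was 2.00 kb long in knockout cells (20039470 to 20041472, pileup 112, fold 16.8) and 2.33 kb long in control cells (20039247 to 20041573, pileup 81.7, fold 12.3). Shared peaks of weaker fold, 3.96 and 3.90 in knockout cells and 3.85 and 2.50 in control cells, lay 2.78 and 14.5 kb downstream in the knockout list. Further in, each list had a peak that the other lacked: a knockout-only peak at 20060816 to 20061442 (627 bp, pileup 21.0, fold 3.37) and a control-only peak at 20057125 to 20058138 (1014 bp, pileup 18.3, fold 2.42). The control-only peak lay 1.81 kb from the nearest knockout peak. The widest peak of the window in each list stood at the start of SGO1, a protector of centromeric cohesion (3.28 kb in knockout and 3.55 kb in control cells).

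HDAC1 (chromosome 1, 32292083 to 32333626) had 2 knockout-only peaks and no control-only peak. The stronger, inside the gene 28.5 kb past the start (32320544 to 32323133, 2590 bp, pileup 27.2, fold 5.31), lay 12.1 kb from the nearest control peak and was the longest knockout-only peak of the 9 genes. Its nearest listed start, 12.2 kb away, was that of the uncharacterised LOC124903949. The other (32349000 to 32349726, 727 bp, pileup 12.9, fold 2.92) lay beyond MARCKSL1, a MARCKS-like protein gene, 1.24 kb from the nearest control peak and 1.67 kb from the start of the uncharacterised LOC105378629. The start peak was 3.47 kb long in knockout cells (32290581 to 32294050, pileup 78.8, fold 12.0) and 2.99 kb long in control cells (32290719 to 32293713, pileup 52.1, fold 11.7), the widest of the window in each list. Peaks covered 11.4 kb in the knockout list and 8.17 kb in the control list, a ratio of 1.40. A shared peak at the window's outer edge (fold 15.1 in knockout and 8.45 in control cells) began 49.7 kb from the gene in the knockout list and 49.6 kb in the control list. The next peak outward, 54.7 kb away in the knockout list (fold 7.72) and 55.0 kb away in the control list (fold 8.85), was left out by the rule.

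HDAC2 (chromosome 6, 113933028 to 113971148) had little acetylation inside the gene and broad peaks upstream of it, in the non-coding gene HDAC2-AS2. The start peak was 2.39 kb long in knockout cells (113969547 to 113971935, pileup 95.4, fold 18.1) and 3.15 kb long in control cells (113968759 to 113971904, pileup 63.4, fold 12.6). A peak 24.0 kb upstream had nearly the same borders in both lists, 113995134 to 114000850 in knockout cells (pileup 99.7) and 113995154 to 114000848 in control cells (pileup 47.2). Its pileup was above that of the start peak in the knockout list and below it in the control list. Farther upstream the knockout list had a single peak of 13.0 kb (114007005 to 114019999, pileup 45.1, fold 10.7), the widest knockout peak around the 9 genes. The control list had 2 peaks there, of 3.72 and 6.87 kb, with 1915 bp between them and folds of 4.95 and 11.2. The knockout-only peak inside the gene (113952770 to 113953018, 249 bp, pileup 9.19, fold 2.61), 16.7 kb from the start of HDAC2-AS2, was the weakest of the 17 by fold.

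**Figure D3:**
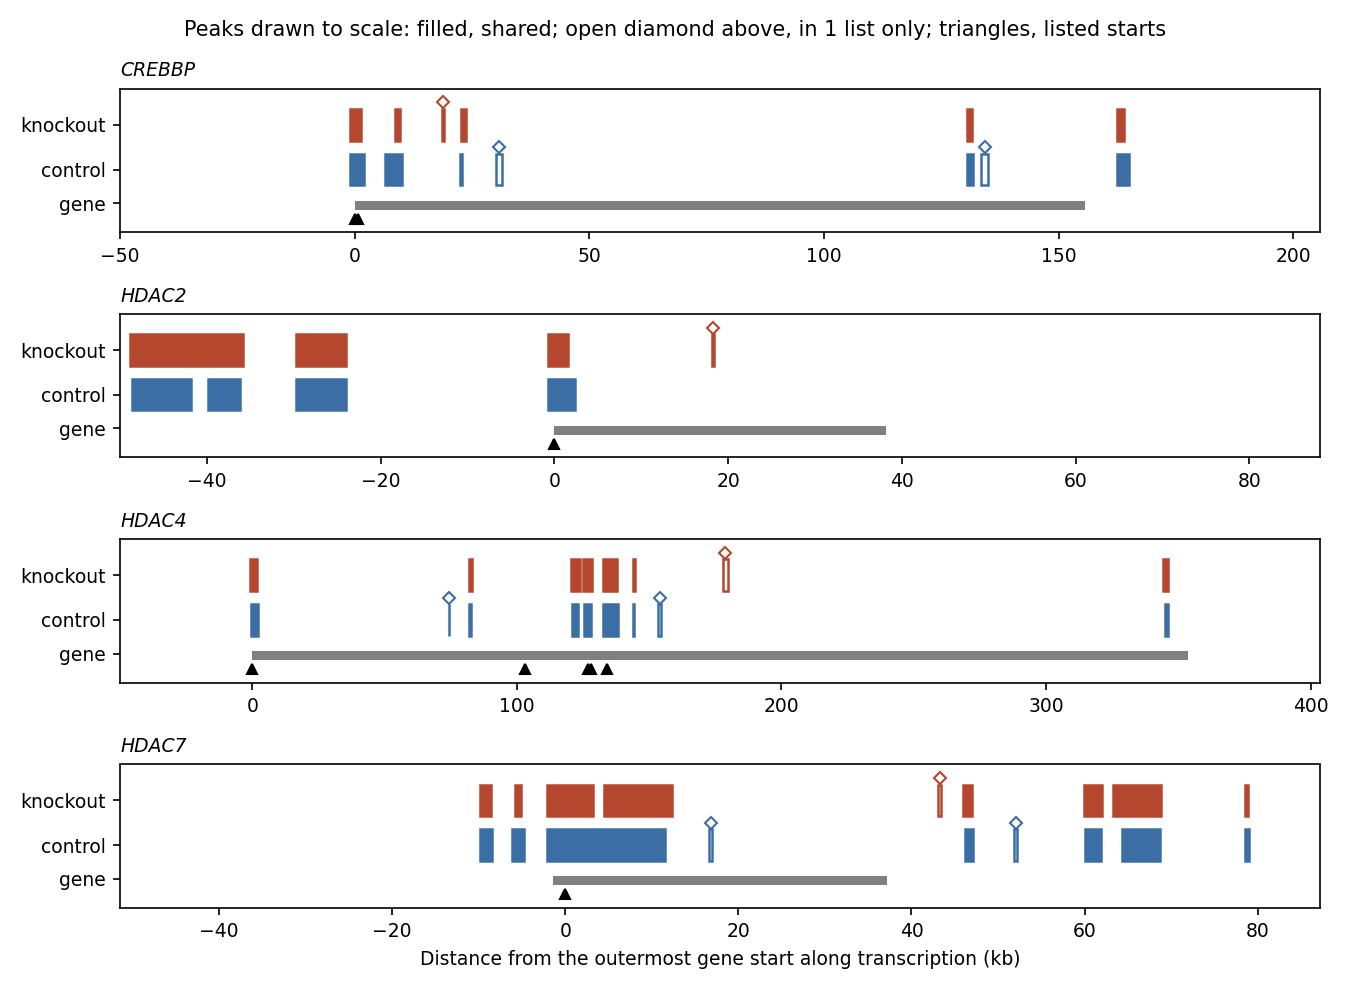
Peaks around CREBBP, HDAC2, HDAC4 and HDAC7, drawn to scale against the distance in kb from the outermost listed start along transcription, with knockout peaks above control peaks and the gene span (grey) and its listed starts (triangles) below. Open diamonds mark peaks of 1 list only; a 13.0 kb knockout peak upstream of HDAC2 faces 2 control peaks, and a 13.7 kb control peak over the HDAC7 start faces 2 knockout peaks.

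HDAC4 (chromosome 2, 239048168 to 239401649) was acetylated at 4 of its 5 listed starts in both genotypes. The outermost start lay in a peak of 2.56 kb in knockout cells (239399948 to 239402510, pileup 84.9, fold 16.8) and 2.79 kb in control cells (239399575 to 239402361, pileup 49.1, fold 10.4). A second acetylated stretch lay inside the gene, with peak centres 122 to 135 kb downstream, where 3 shared peaks held 3 further starts. The peak over 2 of these starts had a pileup of 77.1 in knockout cells (239273320 to 239276697) and 44.2 in control cells (239273553 to 239276342). The peak over the remaining one, the widest of the window, was 5.19 kb long in knockout cells (239263870 to 239269061, pileup 62.3) and 5.73 kb long in control cells (239263386 to 239269113, pileup 43.6). The fifth start, 103 kb inside the gene, lay 17.4 kb from the nearest knockout peak and 17.6 kb from the nearest control peak. In the sequences above, the acetylated inner start has 3 CpG dinucleotides, the one without a peak has 5, and the outermost has 40. The acetylated inner starts that are not shown, at 239273627 and 239267514, have 10 each. A knockout-only peak lay at 239221993 to 239223827 (1835 bp, pileup 16.1, fold 4.98), 23.2 kb from any control peak and 28.3 kb from the start of HDAC4-AS2. Control-only peaks lay at 239247044 to 239248144 (1101 bp, pileup 12.2, fold 3.34) and 239327165 to 239327460 (296 bp, pileup 8.98, fold 2.96).

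HDAC7 (chromosome 12, 47782722 to 47821344) had the largest acetylated share of its window, 17.8% in knockout cells and 17.9% in control cells, with 24.6 and 24.7 kb covered. At its start the control list had a single peak of 13.7 kb (47808380 to 47822077, pileup 54.0, fold 14.1), the widest control peak around the 9 genes. The knockout list had 2 peaks there, separated by 1255 bp: one of 5.34 kb over the start (47816683 to 47822025, pileup 146, fold 26.5) and one of 7.90 kb downstream (47807528 to 47815427, pileup 64.6, fold 12.5). Their summed length, 13.2 kb, was close to that of the control peak. The knockout-only peak (47776479 to 47776795, 317 bp, pileup 10.2, fold 2.75) and a control-only peak (47767659 to 47768049, 391 bp, pileup 8.19, fold 3.16) lay in the neighbouring haem transporter gene SLC48A1. The other control-only peak (47802942 to 47803257, 316 bp, pileup 8.51, fold 3.04) lay inside HDAC7. A shared peak stood at the start of RAPGEF3, a cAMP-activated exchange factor gene, with a fold of 20.1 in knockout and 13.1 in control cells.

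HDAC9 (chromosome 7, 18086825 to 19002416) is the longest of the genes, with a span of 916 kb, and had 19 knockout peaks and 10 control peaks in its window. All 10 control peaks were shared, each with 1 of 10 knockout peaks, and the remaining 9 knockout peaks, 47.4% of the knockout peaks there, were knockout-only. The strongest of these lay 90.6 kb past the outermost start (18177402 to 18179157, 1756 bp, pileup 25.8, fold 5.36) and 90.5 kb from the nearest control peak. The next lay at 18768252 to 18770683 (2432 bp, pileup 14.3, fold 3.80), 18726801 to 18727708 (908 bp, pileup 14.9, fold 3.49), 19024529 to 19025154 (626 bp, pileup 16.5, fold 3.38) and 18861043 to 18862105 (1063 bp, pileup 12.1, fold 3.03). The other 4 had folds of 2.69 to 2.77, pileups of 9.41 to 12.6 and lengths of 228 to 1254 bp. The knockout-only peaks were scattered, 8 of them inside the gene, at 4.09 to 190 kb (median 58.1 kb) from the nearest control peak. The listed starts nearest to them were those of HDAC9, its antisense gene HDAC9-AS1 and the uncharacterised LOC124901598 and LOC124901597.

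The HDAC9 excess was an outlying count among genes, and most of the peaks behind it were faint. HDAC9 was singled out after its values were seen. Over all protein-coding genes 0.0701% (14 genes) had at least 9 knockout-only and no control-only peaks in their window. Long genes have more room for such peaks: of 314 protein-coding genes of at least 500 kb, 2.55% (8 genes) had that pattern, 4.78% had at least 9 knockout-only peaks, and 42.0% had more knockout-only than control-only peaks. The median long gene had 1 knockout-only and 1 control-only peak. Its window held 4 knockout peaks, against 19 at HDAC9, and a window with so few peaks cannot reach a count of 9. Genes with as many peaks as HDAC9 were not compared separately. Of the 9 knockout-only peaks, 1 reached a −log10 q of 5 and 8 did not. When peaks under that value were left out of both lists, HDAC9 had 4 knockout-only and 0 control-only peaks, but 3 of the 4 were peaks shared in the full lists whose control partners had been left out. With the 30000 peaks of highest −log10 q of each list it had 3 and 0, and 1 of the 3 was among the 9. The knockout list also had the higher pileup as a whole. With 1 list per genotype, its part in this count cannot be told apart from that of the genotype and was not tested.

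**Figure D4:**
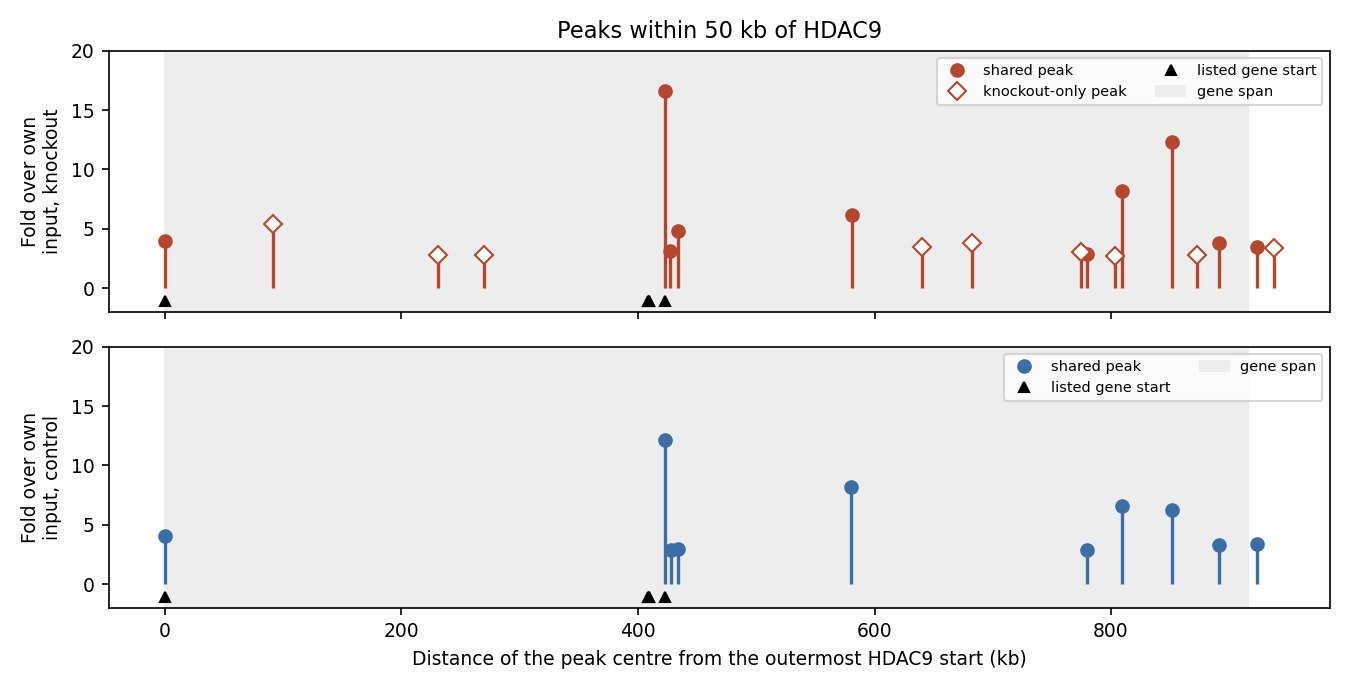
Peaks within 50 kb of HDAC9, with the distance of the peak centre from the outermost HDAC9 start in kb on the horizontal axis and the fold over the input of the same genotype on the vertical axis (knockout above, control below); filled circles are shared peaks, open diamonds knockout-only peaks, black triangles listed starts and the grey band the gene span. The highest point in each panel is the peak at the inner start, and the knockout panel alone has the 9 open diamonds, none above a fold of 5.36.

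Acetylation of HDAC9 in both genotypes was centred on an inner start and not on the outermost one. The peak over the start 422 kb inside the gene was 4.48 kb long in knockout cells (18507743 to 18512219, pileup 84.9, fold 16.6) and 4.61 kb long in control cells (18507601 to 18512209, pileup 53.4, fold 12.1). The peak at the outermost start was 544 bp long in knockout cells (18086329 to 18086872, pileup 18.7, fold 3.96) and 491 bp long in control cells (18086364 to 18086854, pileup 10.8, fold 4.09). With a −log10 q of at least 5 this control peak, at 4.30, was no longer counted. At that threshold 8 of the 9 genes kept a start peak in both lists, and the share of all protein-coding genes is not given here. The outermost promoter printed above has 41 CpG dinucleotides and a GC content of 75.0%, and the strongly acetylated inner one has 0 and 40.0%. Among 431 starts of protein-coding genes with no CpG in this window, 7.42% had a peak within 1 kb in both lists. The 3 listed starts in between, with 5 CpG dinucleotides each, lay 11.5 to 12.0 kb from the nearest knockout peak and 11.3 to 11.9 kb from the nearest control peak. The shared HDAC9 peaks were wider in knockout cells in 7 of 10 pairs, and summed to 20.2 kb in the knockout list and 16.7 kb in the control list. Over all 30509 one-to-one pairs of the series 51.1% were wider in the knockout list.

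**Figure D5:**
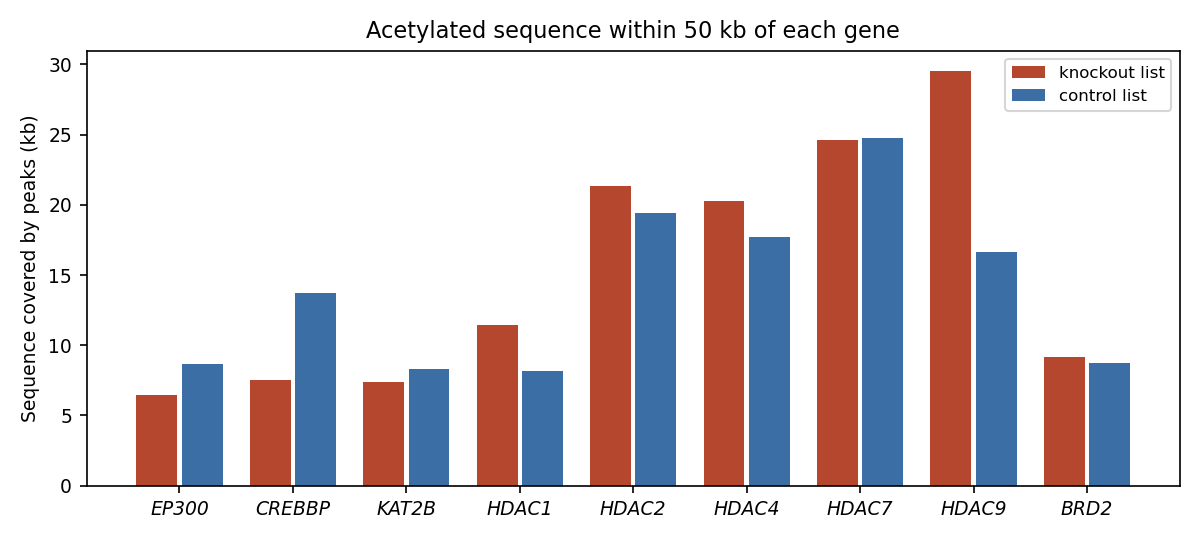
Sequence covered by peaks (kb) within 50 kb of each gene, with the knockout list left of the control list. HDAC9 has 29.5 kb in the knockout list and 16.7 kb in the control list, CREBBP has 7.52 and 13.7 kb, and HDAC7 has 24.6 and 24.7 kb.

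Covered length over all 9 windows came to 138 kb in knockout cells and 126 kb in control cells, a ratio of 1.09. Without HDAC9 it came to 108 kb in knockout cells and 110 kb in control cells, a ratio of 0.988, so the ratio above 1 rested on HDAC9. Over the whole lists peaks covered 89.7 Mb in knockout cells and 87.1 Mb in control cells. HDAC9 and CREBBP were the extremes. HDAC9 had 29.5 kb in knockout cells and 16.7 kb in control cells, a ratio of 1.77, which 5.16% of protein-coding genes reached. The ratio was also above 1 at HDAC1 (1.40), HDAC4 (1.15), HDAC2 (1.10) and BRD2 (1.05), and below 1 at HDAC7 (0.996), KAT2B (0.889) and EP300 (0.743). All 3 writers were below 1, as were most genes, since 40.8% of protein-coding genes had more covered length in the knockout list.

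BRD2 (chromosome 6, 32968594 to 32981505) had no genotype-only peak. Its 4 listed starts lay within a single peak of 8.29 kb in knockout cells (32966791 to 32975079, pileup 219, fold 33.7) and 7.93 kb in control cells (32966916 to 32974846, pileup 132, fold 29.6). That peak stood at percentile 99.7 of the knockout list and 99.9 of the control list by fold. The only other peak of the window was weak in both lists, with a fold of 3.86 in knockout cells (33018660 to 33019522) and 4.94 in control cells (33018746 to 33019570), and its nearest listed start was that of HLA-DOA, a class II antigen presentation gene. No peak of either list lay at HLA-DMA or HLA-DMB, the other class II genes of the window.

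Other genes of the pathway had start acetylation in both lists with few exceptions. A list of 50 other writers, erasers, readers and corepressors that carry deacetylases was used for this. A start was listed for 41 of them, and 37 of the 41 had a peak within 1 kb of the outermost start in both lists: 8 of 8 writers, 9 of 9 erasers, 10 of 13 readers and 10 of 11 corepressors, against 62.0% of all protein-coding genes with a listed start. None had such a peak in 1 list alone. The 4 without one were the reader genes YEATS2, CECR2 and ZMYND11 and the Sin3 scaffold gene SIN3B, and ZMYND11 had a peak in both lists at 6 of its 8 listed starts. Around the 50 genes 41 of 290 knockout peaks were knockout-only (14.1%) and 49 of 290 control peaks were control-only (16.9%). Among peaks within 50 kb of any protein-coding gene these shares were 19.8% and 17.3%, and around the 9 genes without HDAC9 17.8% in each list. The differences between these shares were not tested. By role, the knockout-only share was 8.70% around writers, 11.3% around erasers, 16.4% around readers and 17.0% around corepressors, and the control-only share 16.7%, 13.0%, 22.4% and 15.5%. The highest shares among genes with at least 5 peaks in a list were control-only: MLLT1, a YEATS-domain reader of the super elongation complex (3 of 7, 42.9%), KAT7, an acetyltransferase of histones H3 and H4 (2 of 5, 40.0%), and TBL1XR1, a transducin beta-like corepressor subunit (2 of 5, 40.0%).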

How the data were processed

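Immunoprecipitated and input libraries came from MDA-MB-231 cells without ARID1A and from their controls. The submitters' processing notes name Bowtie2 2.3.5.1, MACS2 2.2.6 and hg38. Caller options, library depth and any pooling of replicates are not given in the sources used here. The deposited lists hold, per the file headers, each peak's position and length, its pileup (a coverage signal), its fold enrichment (a ratio) and its −log10 q, of which the lowest was 1.00 in the knockout list and 1.01 in the control list. Peaks on unplaced scaffolds were not used.

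Overlaps were computed with numpy 2.4.6 and pandas 2.3.3 under Python 3.11.15, and tested on simulated lists against bedtools 2.31.1. Binomial intervals (exact, Clopper-Pearson) came from scipy 1.17.1 and figures from matplotlib 3.10.9. Gene spans and promoter sequences were RefSeq's on GRCh38.p14, and all 9 genes were matched by symbol. A peak within 1 kb of the outermost listed start counted as a start peak. Exons and introns were not told apart. Covered length was clipped to the window.

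The genes and gene lists were chosen with earlier results of these data known. Named peaks are those at the outermost start, the widest of each list and the genotype-only ones (at HDAC9, which had more than 8, the 5 with the highest fold). Other pathway genes were named if they lacked a start peak or were among the 3 with the highest genotype-only share. Alternatives changed the flank, the peak threshold, the overlap rule and the start window.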

Additional observations from a re-analysis of the deposited data

How the results depend on the processing

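Each value was recomputed with flanks of 0, 10 and 100 kb, with a −log10 q of at least 5, with the 30000 peaks of highest −log10 q of each list, with at least 50% of a peak covered counting as shared, with a peak within 1 kb counting as shared, and with start windows of 250 bp and 2 kb, as far as each applied. The knockout-only share ran from 15.0% with the 30000 strongest peaks, outside the interval of its value, to 34.4% with 50% coverage. The control-only share ran from 5.71% with a −log10 q of at least 5, outside its interval, to 21.8% with 50% coverage. The ratio of covered length was 1.03 to 1.13 with the other flanks and thresholds, but without HDAC9, an alternative chosen after seeing the data, it turned to 0.988, and both genotype-only shares were then 17.8%. Start peaks in both lists stood at 8 genes with a −log10 q of at least 5 and at 9 under the other 3 alternatives. Values over all peaks or all protein-coding genes under these alternatives are not given here. Of 72 recomputed counts for single genes, 47 were within 1.5 times the count reported and 25 were not. HDAC9 knockout-only peaks numbered 3 to 12, not all of them among the 9 reported, and HDAC9 control-only peaks 0 or 1. Under the stricter thresholds peaks drop out of either list by construction, and otherwise the cause was not tested. No paired analysis was possible because each genotype had a single peak list, and for the same reason no replicate could be left out. Library depth is unknown, and neighbouring peaks are not independent, so the intervals may be too narrow.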

Other observations

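HDAC9 was not alone in having an inner start with a higher peak than the outermost one. Among 1373 protein-coding genes with a listed start at least 10 kb inside the outermost one, 369 had separate peaks at both in both lists. In 123 of these (33.3%) the inner peak had the higher pileup in both lists. That share is of the 369 genes alone, and the size of the gap is not compared among genes here. HDAC9 and HDAC4 have 4 inner starts each, and the inner value below is that of the highest inner peak. HDAC9 was among the 123, with 84.9 at the inner and 18.7 at the outermost start in the knockout list and 53.4 and 10.8 in the control list. HDAC4 was not, with 77.1 and 84.9 in the knockout list and 44.2 and 49.1 in the control list.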
